A study of Mus musculus with 199 samples.

Results

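The 42 genes described here encode molecular chaperones, protein-folding enzymes and the signalling components of the unfolded protein response and the integrated stress response. They were taken by symbol from a table of 31581 genes, and all 42 were found. The table covers 199 mouse RNA-seq libraries, most of them made from 10 tumour cells of a small-cell lung cancer model, and the comparisons set cultured cells against colonies grown in the liver. KP1 is a tumour line of genotype Rb1-/-Trp53-/-. It was sampled as spheroids in culture (28 libraries of 10 cells, 20 pool-and-split controls), as colonies in the livers of immunocompromised nude mice (33 and 35) and as colonies in the livers of immunocompetent F1 mice (31 and 24). RPC is a line of pre-small-cell lung cancer cells of genotype Rb1-/-Trp53-/-p130-/+Crebbp-/-, grown as spheroids (24 libraries of 10 cells). Bulk spheroid libraries numbered 1 each for KP1, KP2 (Rb1-/-Trp53-/-Ptch1+/lacz), KP3 (Rb1-/-Trp53-/-Axin2+/lacz) and KP5 (Rb1-/-Trp53-/- BAT-GAL). By their labels all groups share the loss of Rb1 and Trp53. KP1 and RPC are each represented by a single line, and the labels do not give the number of mice, cultures or pools, so p-values of the 10-cell libraries measure the spread between captures and not between animals. Those of the pool-and-split libraries measure the spread between splits of pooled material, which may be technical only.

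Chaperones bind unfolded proteins and help them reach or keep their shape. In the endoplasmic reticulum (ER) this is done mainly by BiP, GRP94, calreticulin and calnexin together with disulfide isomerases, and an excess of unfolded protein activates the sensors IRE1, ATF6 and PERK. IRE1 splices the Xbp1 mRNA, ATF6 is cleaved to a transcription factor, and PERK, like the other kinases of the integrated stress response, slows translation while favouring that of ATF4, whose targets serve amino acid supply and, through CHOP, cell death. In the cytosol the HSP70 and HSP90 machines fold kinases, receptors and cytoskeletal proteins, and HSF1 drives their heat-shock induction.

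The promoters of these genes carry the sequence elements through which the responses act, and 34 of the 42 genes were matched in a RefSeq promoter table (GRCm38.p6, 27025 genes, 250 bases before to 50 after the start). The ER stress element, which ATF6 and XBP1 recognise with the CCAAT-binding factor NF-Y, was searched on both strands as CCAAT, 9 bases of any kind and CCACG. It was matched in 7 of the 34 promoters (20.6%) and in 0.137% of all promoters. The 7 genes were Hspa5, Hsp90b1, Calr, Canx, Creld2, Dnajc3 and Pdia6. The CCAAT letters alone, which the longer element contains, were matched in 76.5% of the members' promoters and in 41.1% of all. A match is a description of these letters and not evidence of a bound site. The windows below are shown because these ER chaperone genes share the element yet differed in how their transcripts moved between groups. Capitals mark the fixed letters of the element, on either strand.
Hspa5 (chr2:34772020-34772048, plus strand): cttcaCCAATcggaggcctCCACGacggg
Hsp90b1 (chr10:86705521-86705668, minus strand, 2 matches): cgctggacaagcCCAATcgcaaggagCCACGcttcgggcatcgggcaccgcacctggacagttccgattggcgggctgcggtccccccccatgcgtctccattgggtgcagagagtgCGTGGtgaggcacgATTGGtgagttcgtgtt
Calr (chr8:84847063-84847105, minus strand): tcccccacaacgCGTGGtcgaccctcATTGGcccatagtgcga
Pdia6 (chr12:17266479-17266521, plus strand): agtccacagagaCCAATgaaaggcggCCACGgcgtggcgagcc

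The composite element bound by ATF4 with CHOP or a C/EBP partner was searched as TGATGNAA on both strands and matched in 5 of the 34 promoters, those of Asns, Atf3, Chac1, Herpud1 and Trib3, against 4.51% of all promoters. Asns and Chac1 are shown because both were among the transcripts that fell in nude liver colonies. The heat shock element, searched on both strands as GAA, 2 bases of any kind, TTC, 2 bases of any kind and GAA, was matched in the promoters of Hspd1, Hspe1 and Hsph1, against 0.662% of all promoters. Hspd1 and Hspe1 lie head to head on chromosome 1 and share the matched bases, which are printed in the direction of Hspe1. The Hspa5, Asns and Hspe1 windows are kept short because GENCODE M21 places them within a first exon of Hspa5, Asns and Hspd1.
Chac1 (chr2:119351037-119351068, plus strand): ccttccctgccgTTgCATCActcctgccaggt
Asns (chr6:7693220-7693237, minus strand): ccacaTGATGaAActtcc
Hspe1 (chr1:55088054-55088081, plus strand, 2 overlapping matches): gtccgTTCtaGAAccTTCcgGAAggccc

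Gene totals ranged from 718208 to 7557773 estimated counts in the 10-cell and pool libraries and from 17266200 to 42447973 in bulk, and values are given as CPM, the counts of a gene scaled to a common gene total. All 10 neuroendocrine markers had counts in every 10-cell group. The 20 hepatocyte markers summed to 0 to 99.2 CPM (median 1.11) in KP1 spheroids, where 15 of them, Alb included, were at 0. In nude liver their sum was 33.4 to 6547 (median 1171) and in F1 liver 0 to 3001 (median 200.5). The 5 erythrocyte markers had medians of 0, 551 and 1622 CPM in the same order, and the 10 macrophage markers 13.6, 46.0 and 71.2 CPM. The spike-in share, which is higher where less sample RNA is in the library, had a median of 0.00465% in spheroids, 0.969% in nude liver (highest 31.8%), 2.16% in F1 liver and 0.333% in RPC, and of 5.94% and 13.2% in the nude and F1 liver pools. Median gene totals were 4389716 in spheroids, 2792423 in nude liver and 4587300 in F1 liver. Spike-in share moved with every comparison of liver with spheroids, and apart from the split of spheroid libraries below its part in those results was not tested. Spheroid libraries also differed among themselves, with 9 of 28 at or above 0.1% ERCC counts, and the F1 liver libraries differed in the pseudogene Rpl19-ps11, with 6 of 31 under 200 CPM. Crebbp had counts in all 24 RPC libraries (0.132 to 138 CPM) and all 28 KP1 spheroid libraries (5.28 to 131 CPM). Rb1 also had counts in all 28 KP1 spheroid libraries (2.50 to 85.1 CPM) and Trp53 in 24 of them, and the bulk lines held 142.6 to 193 CPM of Rb1 and 6.67 to 19.7 of Trp53. The table does not show which exons were read, so these values do not check the deletions. In libraries of 10 cells, fewer cells with a transcript and less of it per cell cannot be told apart.

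All 42 genes had counts in each bulk library, whereas a median of 35 had counts in a KP1 spheroid library of 10 cells, 32 in nude liver, 31 in F1 liver and 36 in RPC. Several sensors and ER chaperones that bulk RNA showed clearly were close to 0 in the 10-cell libraries. Hyou1, a large HSP70-like ER chaperone, was at 305 CPM in KP1 bulk RNA and at 0.182 ± 0.340 CPM in KP1 spheroid libraries of 10 cells (SD, n = 28). Ern1, which encodes IRE1, was at 154 CPM in bulk and 1.39 ± 3.08 in the 10-cell libraries. Atf6 was at 245 and 11.1 ± 29.7 CPM. In the other direction Hspe1, the mitochondrial co-chaperonin HSP10, was at 54.4 CPM in bulk and 675 ± 279 in the 10-cell libraries. Ppia, cyclophilin A, was at 585 CPM in bulk and 5017 ± 1960 in the 10-cell libraries. On the scale of log2(CPM + 1), 11 of the 42 genes were higher in the 10-cell mean and 9 were at least 8-fold lower. The longest coding transcript had a median of 1450 bases in the 11 genes that were higher and 2770 bases in the other 31. Across the 42 genes, which are not independent replicates, the Spearman correlation of the ratio with this length was -0.32. The bulk and 10-cell libraries were made by different protocols, and there is 1 bulk library per line, so no test was made.

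**Figure D1:**
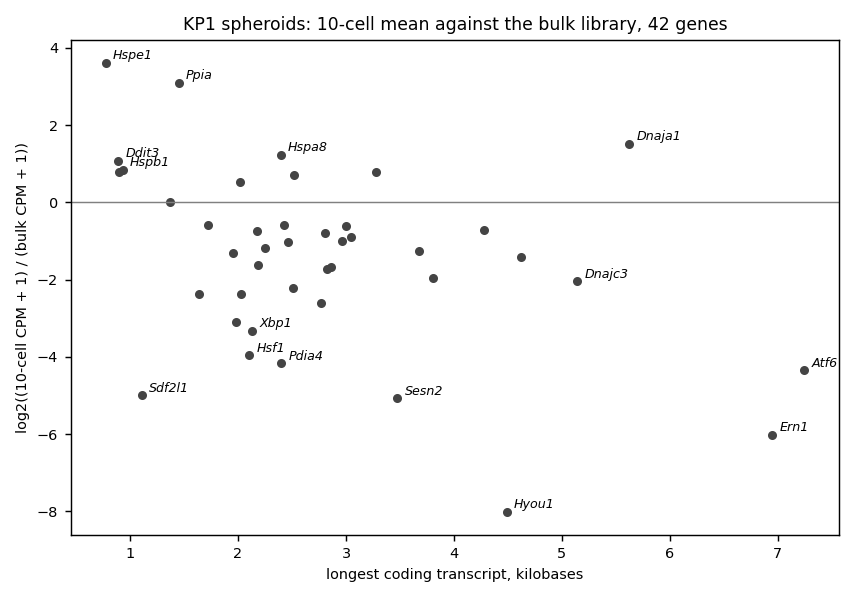
Log2 ratio of the mean CPM in 28 KP1 spheroid 10-cell libraries to the CPM of the KP1 bulk library, with 1 CPM added to both, against the length of the longest coding transcript in kilobases, 1 point for each of the 42 genes. Hspe1 and Ppia lie furthest above the line of equal level, and Hyou1, Ern1, Sesn2 and Sdf2l1 lie furthest below it.

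The filter on low counts removed Hyou1, Sdf2l1, Pdia4, Ern1, Atf3, Sesn2, Hspa1a, Hspa1b, Hspb1 and Hsf1 from every comparison. Atf6 was tested only between RPC and KP1, and Dnajb9, Trib3 and Chac1 were not tested between the 2 liver groups. Hspa1a and Hspa1b, the heat-inducible HSP70 genes, had medians of 0 in every 10-cell group. Hspa1a had 0 counts in all 28 KP1 spheroid libraries, which allows up to 0.0241 CPM over the group by counting error, whereas 12 of 33 nude liver libraries had counts (7.61 ± 22.7 CPM, highest 120.05), as did 3 of 31 in F1 liver and 4 of 24 in RPC. Hspa1b had counts in 3 of 28 spheroid, 6 of 33 nude liver, 4 of 31 F1 liver and 7 of 24 RPC libraries. Neither was tested.

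More members were called between nude liver colonies and spheroids than in the other 3 comparisons of 10-cell libraries. Of the 31 tested, 6 rose and 12 fell in nude liver (edgeR quasi-likelihood test with Benjamini-Hochberg adjusted p under 0.05 over all genes tested). That is 58.1% of the tested members, where 34.1% of the 7834 genes tested were called, 17.7% higher and 16.3% lower. Tested members had a median log2 fold change of -0.47 and all genes one of -0.04. Dnajb9, Trib3 and Chac1, among those that fell, passed the filter through their spheroid level, since all were removed when the liver groups were compared. Their direction was fixed, and they lend this count and median no support. In F1 liver against spheroids, 3 of 31 tested members rose and 3 fell, 19.4% against a background of 12.6% of 7309 genes (7.73% higher and 4.91% lower), with medians of 0.02 and 0.22. Trib3, whose direction was fixed in the same way, is among the 3 that fell. In F1 liver against nude liver, 8 of 28 were higher and 4 lower, 42.9% against 19.2% of 7064 genes (11.2% higher and 7.98% lower), with medians of 0.39 and 0.26. With RLE in place of TMM scaling the last split was 5 higher and 4 lower. In RPC against KP1 spheroids, 3 of 32 were higher and 4 lower, 21.9% of members against 21.9% of 8600 genes (10.3% higher and 11.6% lower), so the members' share equalled the background. RLE scaling changed that split to 7 higher and 4 lower and moved the median of all genes from 0.01 to 0.16. The 2 liver groups and RPC were all compared with the same 28 spheroid libraries, and the F1 against nude comparison shares both liver groups with the others, so these results are not independent of one another.

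**Figure D2:**
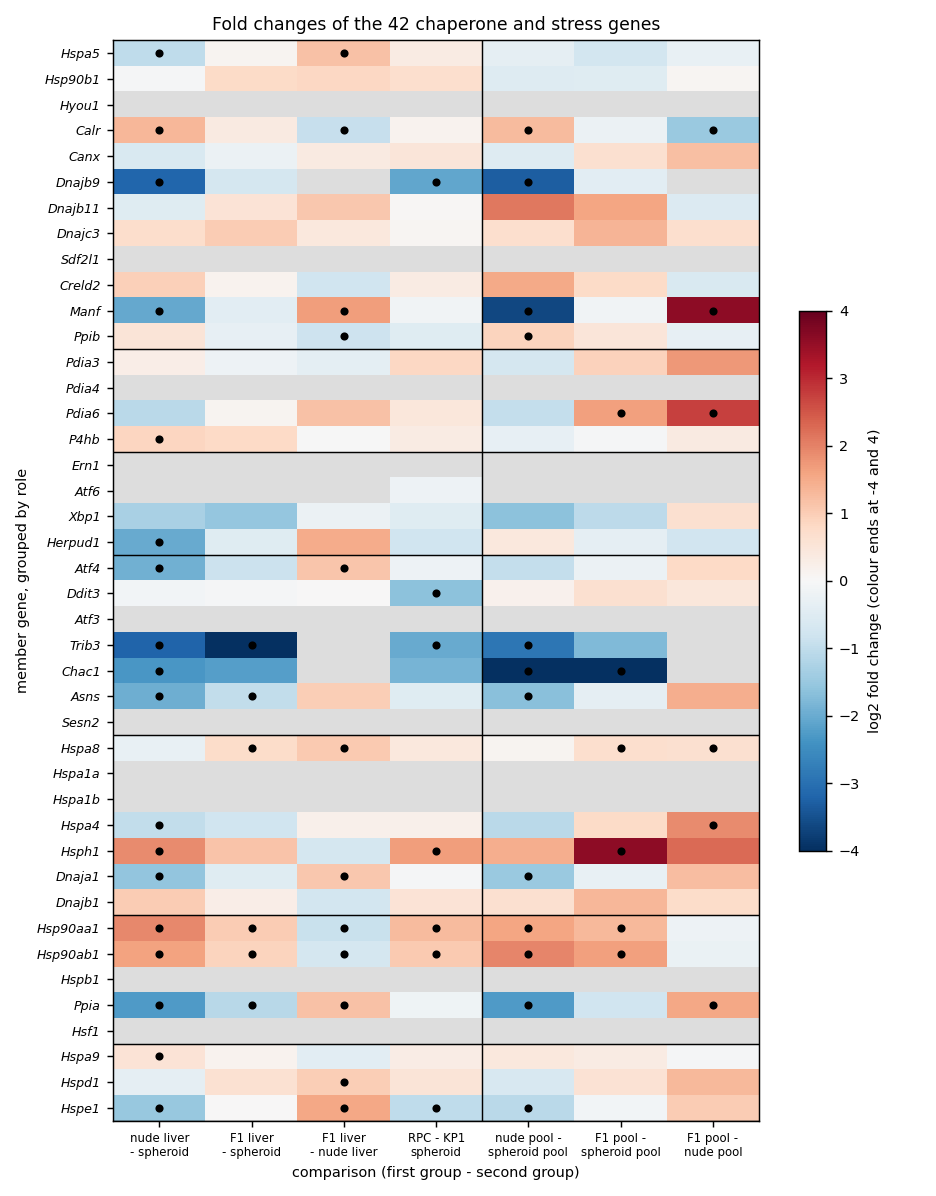
Log2 fold change of each of the 42 genes (rows, grouped by role) in the 4 comparisons of 10-cell libraries and the 3 of pool-and-split controls (columns), with red for higher in the first group, blue for lower, grey for genes removed by the filter and a black dot for an adjusted p under 0.05. Hsp90aa1 and Hsp90ab1 carry a dot in all 4 comparisons of 10-cell libraries, lower in F1 than in nude liver and higher in the first group of the other 3.

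The 2 cytosolic HSP90 genes were higher in nude liver, F1 liver and RPC than in KP1 spheroids. Hsp90aa1, the stress-inducible isoform, ranged from 145 to 2575 CPM in spheroids (median 694) and from 1104 to 8813 in nude liver (median 2572). In F1 liver it ranged from 239 to 2668 CPM (median 1345) and in RPC from 623 to 5286 (median 1607). All 33 nude liver libraries lay above the spheroid median and 16 lay above the highest spheroid library, whereas the F1 liver and RPC ranges overlapped the spheroid range widely. Against spheroids the log2 fold change of nude liver was 1.92 ± 0.19 (SE, edgeR adjusted p = 7.71e-13), that of F1 liver 1.00 ± 0.19 (adjusted p = 0.000133) and that of RPC 1.27 ± 0.24 (adjusted p = 2.94e-05). F1 liver differed from nude liver by -0.90 ± 0.20 (adjusted p = 0.000536).

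Hsp90ab1, the constitutive isoform, gave the same order. Its levels ran from 549 to 4040 CPM in spheroids (median 1430.4), from 2299 to 8724 in nude liver (median 3982), from 243 to 6267 in F1 liver (median 2182) and from 1932 to 7176 in RPC (median 2835). Every nude liver and RPC library lay above the spheroid median, as did 26 of the 31 F1 liver libraries, and all 3 ranges overlapped the spheroid range. The log2 fold change of nude liver was 1.62 ± 0.18 (adjusted p = 1.49e-11), that of F1 liver 0.88 ± 0.18 (adjusted p = 0.000288) and that of RPC 1.04 ± 0.20 (adjusted p = 3.48e-05). F1 liver differed from nude liver by -0.71 ± 0.19 (adjusted p = 0.0035). In the pool-and-split controls both genes were higher in nude and F1 liver than in spheroids, by 1.57 and 1.31 for Hsp90aa1 and 1.95 and 1.63 for Hsp90ab1. The F1 against nude difference was not called in the pools, at -0.21 (adjusted p = 0.591) for Hsp90aa1 and -0.26 (adjusted p = 0.348) for Hsp90ab1.

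Hepatocyte markers moved with the liver groups. In the 17 nude liver libraries with the lower hepatocyte sums (33.4 to 1171 CPM) Hsp90aa1 averaged 2649.7 ± 779 CPM, and in the 16 with the higher sums 2909.8 ± 1784. Spheroids averaged 742 ± 442 CPM. The libraries with lower sums still hold hepatocyte RNA, and its part in the HSP90 difference was not tested by this split. The 10 endothelial and stellate markers also moved with these groups. Their sum was 0 to 14.7 CPM in spheroids (median 0.244), 3.14 to 594 in nude liver (median 31.7) and 0 to 505 in F1 liver (median 10.4), with Cdh5 and Clec4g at 0 in F1 liver. Of them Pecam1 was higher in nude liver than in spheroids (5.17, adjusted p = 4.50e-09) and lower in F1 than in nude liver (-3.14, adjusted p = 1.17e-05), the directions of both HSP90 genes, and its part in the HSP90 result was not tested. Against the 9 spheroid libraries with at least 0.1% ERCC alone, the F1 liver differences were 0.99 for Hsp90aa1 (adjusted p = 0.0778) and 0.78 for Hsp90ab1 (adjusted p = 0.167). Neither was called, in a fit with 9 spheroid libraries in place of 28 and 1.96% of all genes called in place of 12.6%. When the F1 group was limited to its 6 low-Rpl19-ps11 libraries, Hsp90ab1 was not called either (0.67, adjusted p = 0.10), while Hsp90aa1 was (1.21). The lower level of both genes in F1 than in nude liver was not called with those 6 libraries, or with only the liver libraries of lower hepatocyte sum.

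Ppia, the peptidyl-prolyl isomerase cyclophilin A, moved opposite to HSP90 in liver. It ranged from 1141 to 8571 CPM in spheroids (median 4974), from 153 to 3077 in nude liver (median 1176) and from 472 to 4084 in F1 liver (median 1819). No liver library reached the spheroid median, and 16 of 33 nude and 8 of 31 F1 libraries lay below the lowest spheroid library. It fell in both, with log2 fold changes of -2.27 ± 0.20 for nude liver (adjusted p = 1.56e-14) and -1.11 ± 0.19 for F1 liver (adjusted p = 1.42e-05), and F1 was 1.18 ± 0.21 above nude liver (adjusted p = 1.24e-05). RPC, with 1039.9 to 7731 CPM (median 5096), was not called against spheroids (log2 fold change -0.16, adjusted p = 0.619). In the F1 comparison the fall was not called against the 9 spheroid libraries with at least 0.1% ERCC or with the 6 low-Rpl19-ps11 libraries of F1 liver, where the level was 3064 ± 472 CPM against 1757 ± 985 in the other 25. Ppia has 22 pseudogene rows of near-identical sequence in the table, and its counts and those of Hspa8 (11 rows), Hsp90aa1, Hspd1 (5 each), Hsp90ab1, Hspe1 and Dnaja1 (3 each) are uncertain to that extent. Adding the counts of such rows to their parent gene kept all the calls named here for Hsp90aa1, Hsp90ab1 and Ppia.

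**Figure D3:**
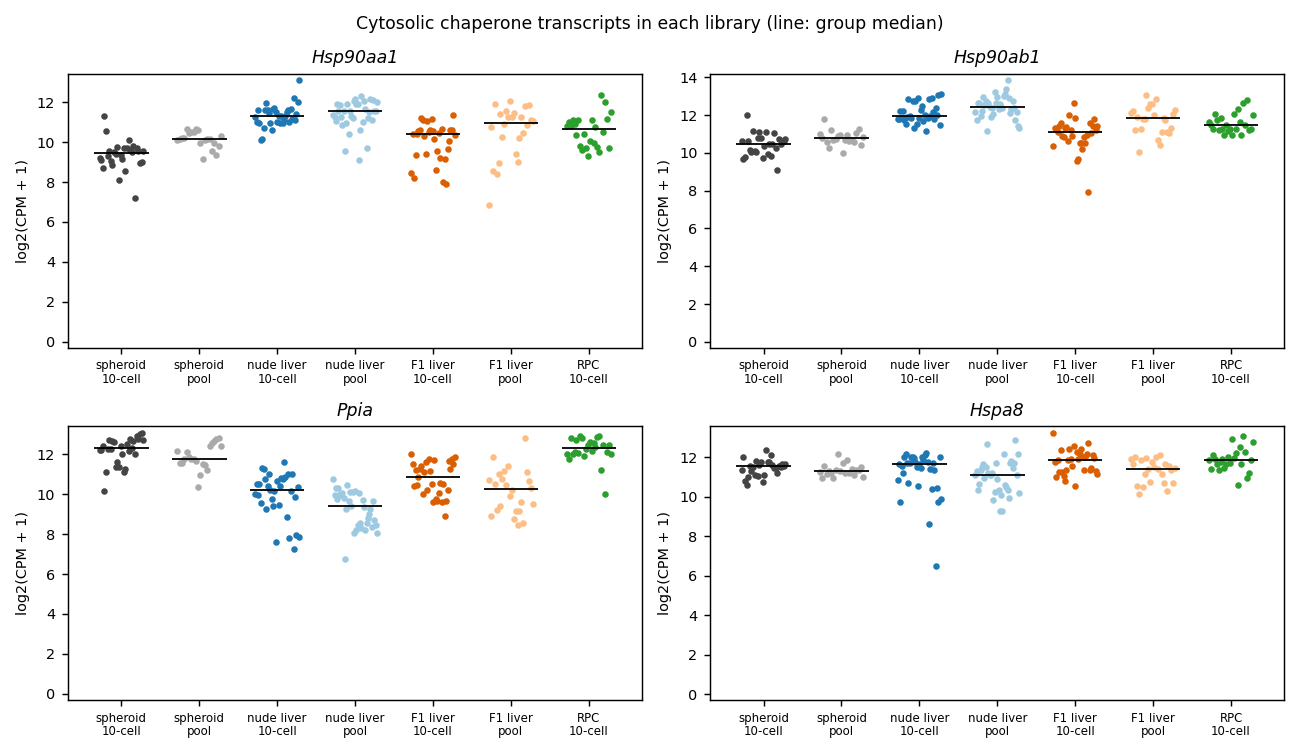
Log2(CPM + 1) of Hsp90aa1, Hsp90ab1, Ppia and Hspa8 in each 10-cell and pool-and-split library, 1 point per library, with a line at the group median. The 33 nude liver 10-cell libraries lie above the spheroid median for both HSP90 genes and below it for Ppia, with F1 liver between them.

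The HSP70 machine of the cytosol did not move as a block. Hspa8, the constitutive HSC70, ranged from 1567 to 5229 CPM in spheroids (median 2973), from 87.4 to 4793 in nude liver (median 3258) and from 1505 to 9544 in F1 liver (median 3663). The 3 ranges overlapped, and 6 F1 libraries exceeded the highest spheroid library. It was higher in F1 liver than in spheroids (0.73 ± 0.19, edgeR adjusted p = 0.00522) and than in nude liver (1.06 ± 0.21, adjusted p = 0.000104), while nude liver against spheroids gave -0.31 ± 0.18 (adjusted p = 0.19). Among the 6 low-Rpl19-ps11 libraries of F1 liver its difference from spheroids was -0.10 (adjusted p = 0.884), and the call was also lost against the 9 spheroid libraries with at least 0.1% ERCC. The Hspa8 call of F1 against nude liver was lost with those 6 F1 libraries (edgeR adjusted p = 0.678) and kept in the 11 other settings. Dnaja1, a J-domain protein that stimulates HSP70, fell in nude liver by 1.57 (adjusted p = 9.55e-05, lost under 2 of 12 other settings), where its median was 103 CPM against 318 in spheroids and 19 of 33 libraries lay below the lowest spheroid library. F1 liver was 1.09 ± 0.38 above nude liver for Dnaja1 (adjusted p = 0.0314), and 6 of 12 other settings lost that call. Hspa4, an HSP110-family exchange factor, fell by 0.99 (adjusted p = 0.0428), a call that 6 of 12 other settings lost. Its relative Hsph1 rose in nude liver by 1.90 ± 0.62 (adjusted p = 0.0121, lost under 5 of 12 other settings) and in RPC by 1.68 ± 0.53 (adjusted p = 0.0156, lost under 1 of 10). Hsph1 had medians of 9.59 CPM in spheroids, 49.4 in nude liver and 57.7 in RPC, with overlapping ranges. Dnajb1, the heat-inducible HSP40, was not called in any of the 4 comparisons, with 1.03 ± 0.47 in nude liver (adjusted p = 0.082).

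The summed level of the 7 integrated stress response genes, which was not tested, had a median of 1000.3 CPM in spheroids, 378 in nude liver, 362 in F1 liver and 702 in RPC. Of the 5 that passed the filter, Atf4, Trib3, Chac1 and Asns fell in nude liver, where 16.3% of all genes were called lower. In F1 liver Trib3 and Asns fell (4.91% of all genes lower), and in RPC Trib3 and Ddit3 (11.6%). Trib3 and Chac1 passed the filter through their spheroid level, since both were removed when the liver groups were compared with each other, so their calls had to point this way and lend the count no support. Among 26 further genes of the response, 17 were tested in nude liver, of which 4 fell and none rose. That is 23.5%, below the 34.1% of all genes called in either direction and above the 16.3% called lower. Aldh1l2 is among these 4. It passed the filter through its spheroid level, so its direction was fixed and it lends the count no support. In F1 liver 2 of 16 fell and none rose (12.5%, against 12.6% of all genes called), and in RPC 4 of 18 were lower and 1 higher (27.8%, against 21.9%). Nupr1, among the 4 lower in RPC, passed the filter through KP1, so its direction was fixed as well.

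Atf4, the transcription factor at the centre of the response, ranged from 65.9 to 558 CPM in spheroids (median 242) and from 0 to 247 in nude liver (median 67.8). In nude liver 32 of 33 libraries lay below the spheroid median and 16 below the lowest spheroid library. It fell by 1.93 (adjusted p = 1.68e-06). F1 liver ranged from 6.10 to 604 CPM (median 72.2), and its difference of -0.85 ± 0.31 was not called (adjusted p = 0.0592), although 28 of 31 libraries lay below the spheroid median. F1 liver was 1.10 ± 0.40 above nude liver (adjusted p = 0.0426), a call that 7 of 12 other settings lost. RPC had 78.7 to 840.04 CPM (median 199.6) and was not called (-0.21, adjusted p = 0.563).

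Asns encodes asparagine synthetase, and its promoter match is printed above. It ranged from 85.6 to 877 CPM in spheroids (median 505), from 2.78 to 758 in nude liver (median 109.8) and from 5.11 to 1316 in F1 liver (median 129.8). All but 1 of the 33 nude liver libraries and 28 of the 31 F1 liver libraries lay below the spheroid median. The fall was -1.97 ± 0.34 in nude liver (adjusted p = 2.54e-06), and for F1 liver it was -0.98 ± 0.33 (adjusted p = 0.0381). The F1 liver call was lost with either set of spheroid libraries split by ERCC and with either set of F1 libraries split by Rpl19-ps11. The values there were -0.82 to -1.20. Of all genes, 8.6% were called with spheroid libraries under 0.1% ERCC and 1.96% with the others. With high Rpl19-ps11 15% were called and with low 3.57%, in place of 12.6%. Over all 14 other settings the Asns values ran from -0.82 to -2.13. RPC gave -0.50 ± 0.25 (adjusted p = 0.143). Across libraries Atf4 and Asns were not correlated at an adjusted p of 0.05 in any of the 7 groups, with r = -0.165 and rho = -0.218 in spheroids and r = 0.35 and rho = 0.252 in nude liver.

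Trib3, a pseudokinase induced by ATF4 and CHOP, had counts in 27 of 28 spheroid libraries, 22 of 33 in nude liver, 7 of 31 in F1 liver and 21 of 24 in RPC. Its levels ran from 0 to 385 CPM in spheroids (median 55.7), from 0 to 93.9 in nude liver (median 1.48), from 0 to 83.7 in F1 liver (median 0) and from 0 to 99.9 in RPC (median 15.1). The ranges overlapped because 1 spheroid library was at 0 and single liver libraries were high. The fitted log2 fold changes were lower in all 3, with values of -3.20 ± 0.64 for nude liver (adjusted p = 5e-05), -4.43 ± 0.85 for F1 liver (adjusted p = 0.000118) and -2.02 ± 0.52 for RPC (adjusted p = 0.00254). Chac1, which degrades glutathione, fell in nude liver by 2.32 (adjusted p = 0.0157, lost under 3 of 12 other settings), with counts in 14 of 33 libraries against 23 of 28 in spheroids. In F1 liver it had counts in 5 of 31 libraries and the difference of -2.21 was not called (adjusted p = 0.112).

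Ddit3, which encodes CHOP, was not called in either liver group. Its medians were 119 CPM in spheroids (0.723 to 440.1), 117 in nude liver (0 to 1015) and 56.5 in F1 liver (0 to 917). These ranges overlapped, and the differences from spheroids were -0.10 ± 0.42 for nude liver (adjusted p = 0.885) and -0.05 ± 0.51 for F1 liver (adjusted p = 0.968). In RPC it ranged from 0.795 to 277 CPM (median 33.8), 21 of 24 libraries lay below the KP1 median, and it was lower by -1.63 ± 0.44 (adjusted p = 0.0043). In the pools Asns was also lower in nude liver than in spheroids (-1.67), while Atf4 was not called (-0.94, adjusted p = 0.191). Trib3 and Chac1 were called lower there too (-2.88 and -6.26), as was Chac1 in F1 liver pools (-4.08, adjusted p = 0.00329). Both were removed when the liver pools were compared with each other, so they passed the filter through their spheroid pools and their direction was fixed.

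**Figure D4:**
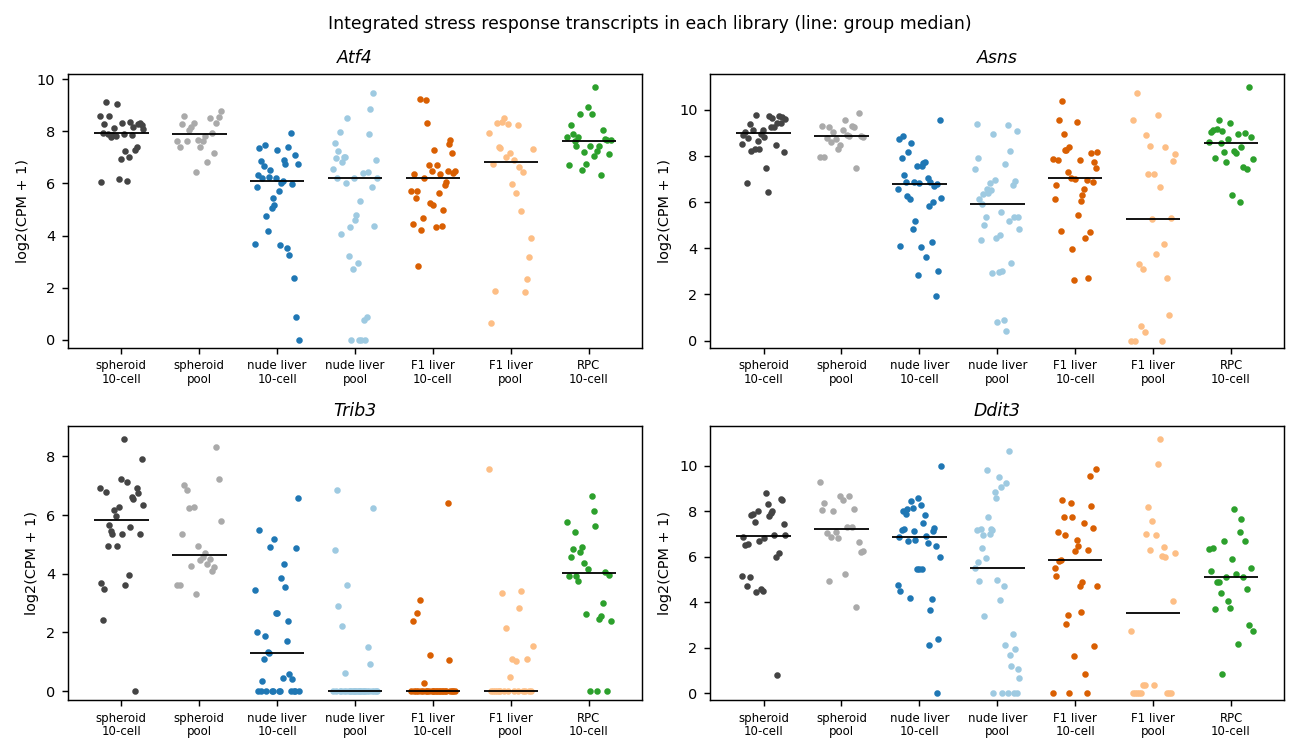
Log2(CPM + 1) of Atf4, Asns, Trib3 and Ddit3 in each 10-cell and pool-and-split library, 1 point per library, with a line at the group median. The liver medians lie below the spheroid median for Atf4, Asns and Trib3, with Trib3 above 0 in 7 of the 31 F1 liver libraries, and the points of liver and spheroids overlap for all 4 genes.

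ER chaperones moved in both directions. In nude liver, of 10 tested, Calr rose while Hspa5, Dnajb9 and Manf fell, 40.0% of those tested and near the 34.1% of all genes called. Hspa5 and Calr both have the ER stress element printed above. Dnajb9 passed the filter through its spheroid level, since it was removed when the liver groups, 10-cell or pool, were compared with each other, so the direction of its liver calls was fixed. Calr, the calcium-binding lectin chaperone calreticulin, ranged from 5.88 to 359 CPM in spheroids (median 68.0) and from 27.8 to 409 in nude liver (median 212). All but 1 of the 33 nude liver libraries exceeded the spheroid median, and 3 exceeded the highest spheroid library. The difference was 1.32 ± 0.26 (adjusted p = 2.74e-05, lost under 2 of 12 other settings). F1 liver, at 0.274 to 217 CPM (median 83.3), differed from nude liver by -0.94 ± 0.26 (adjusted p = 0.00582, lost under 3 of 12) and was not called against spheroids (0.36, adjusted p = 0.468). The pools gave 1.26 for nude liver against spheroids (adjusted p = 0.000867) and -1.48 for F1 against nude liver (adjusted p = 0.00229).

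Hspa5, which encodes BiP, the ER HSP70 that also holds the sensors inactive, ranged from 2.35 to 413 CPM in spheroids (median 178), from 0 to 450 in nude liver (median 82.5) and from 0.822 to 778 in F1 liver (median 144). In nude liver 27 of 33 libraries lay below the spheroid median within overlapping ranges. It fell by 1.03 (adjusted p = 0.0283, lost under 2 of 12 other settings), and F1 liver was 1.16 ± 0.43 above nude liver (adjusted p = 0.0488), a call that 8 of 12 other settings lost. No such difference was called in the pools (-0.35, adjusted p = 0.695, for nude liver against spheroids). Dnajb9, a J-domain co-chaperone of BiP, was called lower in nude liver (-3.18 ± 0.66, adjusted p = 8.22e-05) and its pools (-3.30, adjusted p = 0.00198), the direction the filter had fixed. It fell in RPC (-2.06 ± 0.62, adjusted p = 0.0113), a call lost with the replicate block and with spheroid libraries under 0.1% ERCC (adjusted p up to 0.129). Its medians were 14.1 CPM in spheroids, 0.995 in nude liver, 0.273 in F1 liver and 3.13 in RPC. Manf, a secreted ER stress-induced protein, fell in nude liver (-2.05 ± 0.58, adjusted p = 0.00368, lost under 3 of 12 other settings), where 28 of 33 libraries lay below the spheroid median of 18.8 CPM, and in the nude liver pools (-3.65, adjusted p = 1.53e-05). F1 liver was 1.68 ± 0.57 above nude liver for Manf (adjusted p = 0.0285), a difference that 6 of 12 other settings left uncalled (0.83 to 2.57).

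The other genes with the ER stress element, Hsp90b1 (GRP94), Canx (calnexin), Creld2, Dnajc3 and the disulfide isomerase Pdia6, were not called in any of the 4 comparisons of 10-cell libraries. Their log2 fold changes in nude liver were -0.05 for Hsp90b1, -0.59 for Canx, 0.94 for Creld2, 0.70 for Dnajc3 and -1.09 for Pdia6 (adjusted p = 0.0588). Pdia6 was higher in F1 liver pools than in spheroid pools (1.65 ± 0.56, adjusted p = 0.0428), but RLE scaling, limma-voom and the replicate block each ended that call and the value went as low as 0.047. It was also higher than in nude liver pools (2.74 ± 0.72, adjusted p = 0.00759, and 0.118 with the replicate block). Among the other isomerases, P4hb rose in nude liver by 0.86 ± 0.32 (adjusted p = 0.0272), with medians of 222 CPM in nude liver and 124 in spheroids, and its value in the pools was -0.33 (adjusted p = 0.591). The P4hb call was lost under 4 of 12 other settings. Pdia3 was not called (0.25, adjusted p = 0.757). Ppib, the ER cyclophilin, was lower in F1 than in nude liver by -0.82 ± 0.31 (adjusted p = 0.0492), which 5 of 12 other settings left uncalled, with a value as small as -0.029. Dnajb11, a BiP co-chaperone, was not called in any comparison.

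Of the signalling genes, only Herpud1, a component of ER-associated degradation, was called, and only between nude liver and spheroids. It fell by 2.03 (adjusted p = 0.0158), with medians of 23.5 CPM in spheroids and 6.35 in nude liver, and 4 of 12 other settings lost the call. Its value ran from -0.87 with DESeq2 to -5.06 with the hepatocyte covariate. One spheroid library stood at 761 CPM, where the mean of the 28 was 60.4. It is not among the 9 spheroid libraries with at least 0.1% ERCC, whose highest value was 59.8 CPM. Against these 9 the call was lost, in a fit with 19.4% of all genes called. A fit that left out this library alone was not made. Xbp1 had medians of 8.99 CPM in spheroids, 9.24 in nude liver, 1.18 in F1 liver and 18.9 in RPC. Its difference from spheroids was -1.30 ± 0.54 for nude liver (adjusted p = 0.055) and -1.56 ± 0.68 for F1 liver (adjusted p = 0.119). The count table does not separate the spliced form of Xbp1. Atf6 was not called between RPC and KP1 (-0.19, adjusted p = 0.904).

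Mitochondrial chaperones differed from one another. Hspe1 ranged from 212 to 1702 CPM in spheroids (median 655), from 0.415 to 731 in nude liver (median 267), from 84.3 to 1526 in F1 liver (median 509) and from 180.2 to 903 in RPC (median 350.1). In nude liver 31 of 33 libraries lay below the spheroid median, as did 22 of 24 in RPC, within overlapping ranges. The difference from KP1 spheroids was -1.51 ± 0.29 for nude liver (adjusted p = 3.04e-05). In RPC it fell by 1.00 (SE 0.23, adjusted p = 0.000614). F1 was 1.53 ± 0.30 above nude liver (adjusted p = 9.63e-05). That call was lost with the 6 low-Rpl19-ps11 libraries of F1 liver (edgeR adjusted p = 0.689), which averaged 387 ± 194 CPM against 601 ± 283 in the other 25. The partner of Hspe1 is Hspd1, the chaperonin HSP60, which is transcribed from the other side of the same promoter. Hspd1 was not called in nude liver (-0.35 ± 0.31, adjusted p = 0.396) or RPC (0.52 ± 0.23, adjusted p = 0.091). F1 was 0.98 ± 0.35 above nude liver for Hspd1 (adjusted p = 0.0372), a call that 6 of 12 other settings lost. The difference between the 2 partners was not tested. Hspa9, the mitochondrial HSP70, rose in nude liver by 0.56 ± 0.19 (adjusted p = 0.0205), where 29 of 33 libraries exceeded the spheroid median of 645 CPM, and 3 of 12 other settings lost the call.

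Host RNA moved with these liver results. With the hepatocyte score as a covariate, 2 members rose and 4 fell in nude liver, and 5 of the 18 calls were kept, those of Herpud1, Asns, Hsp90aa1, Hsp90ab1 and Ppia, while the share of all genes called went from 34.1% to 14.3%. In this fit the score and the group overlap heavily, since spheroids have almost no hepatocyte signal. The calls lost with the covariate kept their direction. With only the nude liver libraries of lower hepatocyte sum, 4 rose and 10 fell, and 13 of the 18 were kept, with 25.9% of all genes called. Against only the 9 spheroid libraries with at least 0.1% ERCC, 2 rose and 7 fell, with 19.4% of all genes called. Of the 6 calls in F1 liver, that of Trib3, which passed the filter through its spheroid level, was the one kept with these 9 libraries and with the 19 others, and with the 25 and the 6 F1 libraries split by Rpl19-ps11. The part of host RNA and of these splits in the other members' results was not tested.

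In the pool-and-split controls, 12 of 31 members were called between nude liver and spheroids (25.6% of 8010 genes, 16.5% higher and 9.13% lower). Between F1 liver and spheroids 6 of 31 were called (11.6% of 7249 genes, 8.94% higher and 2.65% lower), and between F1 and nude liver 6 of 28 (12.0% of 6010 genes, 8.20% higher and 3.79% lower). In nude liver pools 4 were higher (Calr, Ppib, Hsp90aa1 and Hsp90ab1) and 8 lower (Dnajb9, Manf, Trib3, Chac1, Asns, Dnaja1, Ppia and Hspe1). Of the lower genes, Dnajb9, Trib3 and Chac1 passed the filter through their spheroid pools. Their direction was fixed, and they lend the count no support. In F1 liver pools 5 were higher than in spheroid pools (Pdia6, Hspa8, Hsph1, Hsp90aa1 and Hsp90ab1) and Chac1 was lower, the direction the filter had fixed. Against nude liver pools, F1 pools were higher in Manf, Pdia6, Hspa8, Hspa4 and Ppia and lower in Calr. Of these, the Hspa4 call was lost with limma-voom and its value turned to -0.056 with the replicate block, which also ended the Calr call. The Manf call was lost with limma-voom and that of Hspa8 under 2 of 8 other settings, as was that of Ppib in nude liver pools under 3 of 8. Hsph1 in F1 pools rested on a few libraries: its median was 8.22 CPM against 20.3 in spheroid pools, its highest value was 2447, and its difference of 3.59 turned to -0.77 with the replicate block and -0.78 with limma-voom.

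The spread between 10-cell libraries was compared with that of the pools, which by their label are pooled and then split material. The liver pools had higher median spike-in shares than the 10-cell libraries, 5.94% against 0.969% in nude liver and 13.2% against 2.16% in F1 liver. Their median gene totals were 2700134 against 2792423 in nude liver and 3527053 against 4587300 in F1 liver. The part of these differences in the spread results was not tested. No member was called in spheroids (0 of 33, with 1 at an unadjusted p under 0.05, limma), against 0 of 8600 genes, or 0%, with 510 of these at an unadjusted p under 0.05. No member was called in nude liver (0 of 30, with 3 at an unadjusted p under 0.05), where 0.543% of genes were wider and 0.181% narrower in 10-cell libraries. In F1 liver 1 of 32 was narrower in 10-cell libraries, where 0.947% of genes were, and none was wider, where 0.548% were (5 others had an unadjusted p under 0.05). The narrower gene was Asns, with spreads of 1.45 and 3.13 on the log2(CPM + 1) scale (difference -1.68, limma adjusted p = 0.0177), and it was no longer called with 5 CPM added in place of 1.

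Among 9 pairs of partner genes examined in 7 groups of libraries (63 correlations), 2 passed an adjusted p of 0.05 for Spearman's rho and 7 for Pearson's r. Hsp90aa1 and Hsp90ab1 rose and fell together across the 24 RPC libraries, with r = 0.816 (permutation adjusted p = 0.000945) and rho = 0.70 (adjusted p = 0.0101). Without the 2 libraries farthest from the Hsp90aa1 median r was 0.69. In the other groups rho for this pair was 0.32 in spheroids, 0.51 in F1 liver and 0.28 in nude liver, and in their pools 0.039, 0.485 and 0.155 in the same order. In F1 liver r was 0.615 (permutation adjusted p = 0.00294) and 0.499 without the 2 farthest libraries. In spheroids r fell from 0.572 (permutation adjusted p = 0.0218) to 0.129 without the 2 farthest, so it rested on those. Hspd1 and Hspe1 were correlated across the 33 nude liver libraries, with r = 0.777 (permutation adjusted p = 0.00063), rho = 0.577 (adjusted p = 0.0161) and r = 0.614 without 2 libraries. In the 35 nude liver pools the same pair had r = 0.258 and rho = 0.14. Hspa5 was correlated by r but not by rho in nude liver with Hsp90b1 (r = 0.507, permutation adjusted p = 0.0257, rho = 0.232, r = 0.333 without 2 libraries) and with Pdia6 (r = 0.54, permutation adjusted p = 0.0218, rho = 0.33, r = 0.372 without 2 libraries). Hspa8 and Dnaja1 ran opposite in F1 liver, with r = -0.532 (permutation adjusted p = 0.0218), rho = -0.483 (adjusted p = 0.101) and r = -0.562 without 2 libraries. The libraries of a group differ in depth and in host RNA, which both genes of a pair share.

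**Figure D5:**
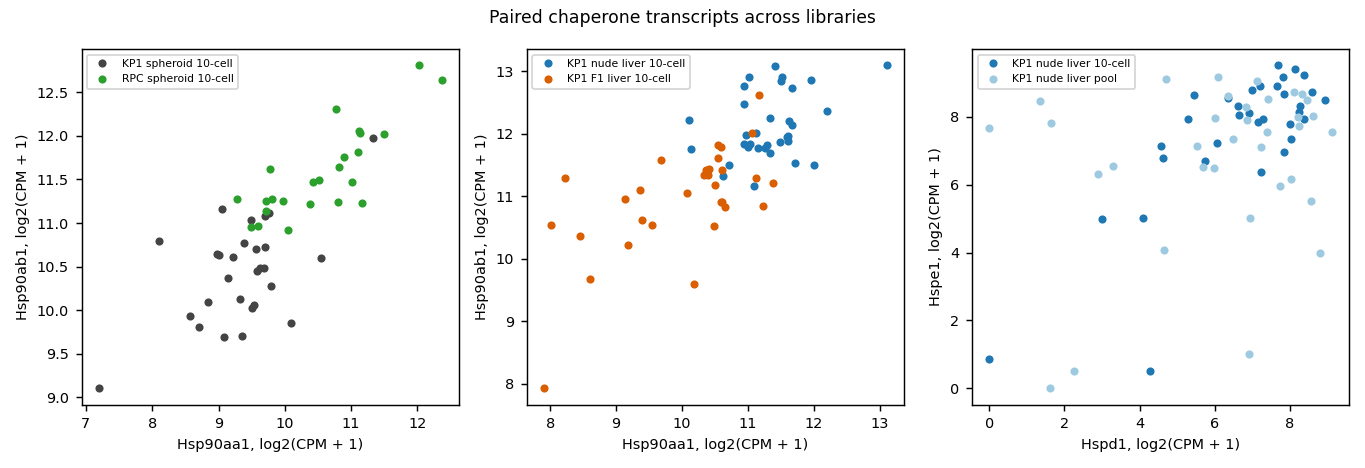
Log2(CPM + 1) of Hsp90ab1 against Hsp90aa1 in spheroid and RPC libraries (left) and in nude and F1 liver libraries (middle), and of Hspe1 against Hspd1 in nude liver 10-cell and pool libraries (right), 1 point per library. The 24 RPC libraries form the tightest band for the HSP90 pair (r = 0.816), and the nude liver pools scatter widely for the mitochondrial pair (r = 0.258).

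The 4 bulk lines were described with 1 library each and no test. The summed level of the integrated stress response genes was higher in KP1 and KP3 (1603 and 1376 CPM) than in KP2 and KP5 (723 and 591). Within this group Trib3 was at 418 CPM in KP1 and 347 in KP3, against 37.5 in KP2 and 13.5 in KP5, and Ddit3 at 72.7 and 42.2 CPM against 14.2 and 7.94. Atf3, a stress-induced repressor, was at 96.7 and 38.3 CPM against 5.35 and 5.96, and Sesn2, an inhibitor of mTORC1, at 115 and 128 against 33.7 and 17.6. Asns differed less, with 358, 264, 288 and 265 CPM in KP1, KP3, KP2 and KP5. The sensors and signalling genes summed to 789 and 707 CPM in KP1 and KP3 against 673 and 516, and the mitochondrial chaperones to 1698 and 1446 against 1329.8 and 1406. The next 3 groups had the opposite order. ER chaperones summed to 2317 and 2621 CPM in KP1 and KP3 against 3201 and 3557 in KP2 and KP5, and the HSP70 system to 1927 and 2048 against 3469 and 4627. HSP90, cyclophilin A and their group summed to 1984 and 2635 CPM against 5491 and 5604. In it Hsp90ab1 was at 916 and 1366 CPM against 3103 and 2886. The heat-inducible Hspa1a and Hspa1b summed to 2.14 and 7.42 CPM in KP1 and KP3 and to 31.0 and 2.33 in KP2 and KP5. The split of the lines was seen in these values and is not a label, and the genes named were chosen after their values were seen.

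The same pathways were read in 121 further genes, whose list was set with the study's earlier results known. In nude liver 10 of 97 tested rose and 22 fell (33.0% called, near the background), with a median log2 fold change of -0.31. Among those with at least 10 CPM, Fkbp4, Cdc37 and Bag1, which are co-chaperones of HSP90 and HSP70, rose by 1.40, 1.42 and 1.14. Mbtps2, the protease that cleaves ATF6, rose by 2.58. Sec61b, a subunit of the ER translocon, fell by 2.46, from 456 ± 157 to 100.1 ± 78.5 CPM. Cct2, a subunit of the cytosolic chaperonin, fell by 1.95. The prefoldin subunit Pfdn5 and Aldh1l2, a mitochondrial folate enzyme and ATF4 target, were also called lower (-0.91 and -2.57). Aldh1l2 was removed when the liver groups were compared, so it passed the filter through its spheroid level and its direction was fixed.

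In F1 liver 7 of 94 rose and 5 fell (12.8%, near the background). Nupr1, a stress-induced chromatin protein, fell from 464 ± 271 CPM in spheroids to 68.0 ± 120.3 (-2.48), and Slc7a11, the cystine transporter, was at 3.24 ± 6.52 CPM against 26.7 ± 64.0 (-2.88). Sec62 and Sec61b fell (-1.75 and -0.76), and Cct5, Mbtps2, Dnajb2 and Grpel1 rose by 0.70, 1.51, 2.49 and 0.91. Against nude liver, 13 of 87 were higher in F1 and 3 lower (18.4%, near the background of 19.2%). Tcp1, Sec61b, Grpel1 and Rpn2 were higher by 1.43, 1.72, 1.88 and 1.01. Slc7a11, Cdc37 and Ptges3, the HSP90 co-chaperone p23, were lower (-4.16, -1.02 and -1.94).

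In RPC 17 of 104 were higher than in KP1 spheroids and 12 lower (27.9%, above the background of 21.9%). Of the cytosolic chaperonin, Cct4 was at 1601 ± 589 CPM in RPC (n = 24) and 426 ± 158 in KP1 (n = 28), Cct5 at 1991 ± 612 and 779 ± 178, and Cct8 at 676 ± 329 and 260.1 ± 155. Nupr1 was at 0.440 ± 1.31 CPM in RPC against 464 ± 271 in KP1, and Bag3, an HSP70 co-chaperone of selective autophagy, at 0.0640 ± 0.314 against 19.6 ± 19.5. Both are near 0 in RPC and passed the filter through KP1, so their direction was fixed and they lend the count of lower genes no support. Pfdn1 and Sec61b were lower by -2.04 and -1.20, and Mbtps2 was higher by 2.40. All genes named here from the wider lists had an edgeR adjusted p of 0.0349 or less in the comparison given.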

How the data were processed

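RNA was measured in 199 libraries. Per the labels' protocols, 10-cell samples were cut by laser from 8 µm cryosections, and their poly(A) RNA was reverse transcribed, PCR amplified and tagmented, while bulk RNA was oligo-dT purified and made into libraries with another kit. The deposited values are unscaled expected counts (reads estimated for each gene), and 10.7% of values have decimals. The submitters' processing notes name RSEM, Bowtie2, GRCm38 and GRCh38.p12 without roles. Counts were rounded, and the 92 ERCC spike-in rows were left out of totals and tests. Comparisons used edgeR 4.0.16 in R 4.3.3 (TMM scaling, filterByExpr, robust quasi-likelihood test) with only the groups compared in each fit and an adjusted p under 0.05 over all genes. For spread, each library's distance from its group median in log2(CPM + 1) was compared with limma 3.58.1 for genes averaging at least 5 CPM. DESeq2 1.42.0 and limma-voom served as alternatives. Correlations used 100000 permutations (smallest possible p 1e-05). The members, lists and tests were chosen with earlier results of these data known. All members may be named, and the wider lists contribute up to 4 called genes per direction, ranked by adjusted p, whose mean reaches 10 CPM in either group. The smallest chi-squared value per degree of freedom between libraries of a group was 29.2, so no pair looked like a repeat of 1 library. PCR copies are not independent molecules, so floors cover counting error alone. The main edgeR fit of each comparison and a simplified form of the spread test were run on simulated data. The alternative fits and the correlations were not.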

Additional observations from a re-analysis of the deposited data

How the results depend on the processing

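Hsp90aa1, Hsp90ab1, Ppia and Asns kept their calls in nude liver against spheroids in all 12 alternatives, Ppia in F1 against nude liver in all 12, and Trib3, Ddit3, Hsp90aa1, Hsp90ab1 and Hspe1 in RPC in all 10. Sign changes of values that were uncalled both times were not counted. The cause of each change below was not tested. Counts of members called differed as follows, each with the share of all genes called in the same fit, since in many of these fits that share moved too. Without the low-count filter, 10 were higher in nude liver (42%), 5 in F1 liver (26.7%) and 5 in RPC (31.5%), and 20, 12 and 12 were called in the nude liver, F1 liver and F1 against nude pools (39.3%, 28.3% and 29.5%). With the hepatocyte covariate, 2 were higher and 4 lower in nude liver (14.3%). With spheroid libraries of at least 0.1% ERCC, 2 were higher and 7 lower in nude liver (19.4%), and 0 higher (edgeR, 3 at an unadjusted p under 0.05) and 1 lower in F1 liver (1.96%). In F1 liver, DESeq2 gave 5 lower (19.4%) and limma-voom 9 lower (23.8%), and the libraries with low Rpl19-ps11 gave 1 higher and 1 lower (3.57%). In F1 against nude liver, RLE (19.1%) and limma-voom (24.8%) gave 5 higher, libraries of at least 1500000 counts 3 higher (14.2%), those of lower hepatocyte sum 3 higher and 0 lower (edgeR, 4 unadjusted, 7.02%), high Rpl19-ps11 5 higher (17.7%), and low Rpl19-ps11 1 higher and 0 lower (edgeR, 3 unadjusted, 2.93%). In RPC, RLE (22.8%) and DESeq2 (28.8%) gave 7 higher. In the pools, limma-voom called 23 in nude liver (59.7%, median log2 fold change of all genes -1.09) and 16 in F1 liver (46.1%, median -1.45), and DESeq2 called 11 in F1 against nude liver (18.1%). Asns lost its spread call with 5 CPM added, leaving 0 of 32 (limma, 5 unadjusted).

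Replicate numbers did not pair the samples as sets: same-number correlations had medians from -0.02 to 0.01, and at most 3 pairs of a comparison exceeded 0.1 and at most 2 libraries correlated best with their own number. Single pairs were higher, up to 0.52 in RPC against KP1 spheroids and 0.256 in F1 against nude liver. With a replicate block, 9 members were lower in F1 liver (13% of all genes called, median log2 fold change -0.44), 3 higher and 2 lower in F1 against nude liver (13.2%), and 11 and 2 were called in the F1 liver and F1 against nude pools (27.1% and 3.51%). The block reversed Creld2 in F1 liver (-2.71), Hsph1 in F1 pools (-0.77) and Hspa4 in F1 against nude pools (-0.056). Other reversals were Hspa8 in F1 liver with low Rpl19-ps11 (-0.10) and, with limma-voom, Herpud1 (-3.18) and Ddit3 (-2.49) in nude liver pools and Ddit3 (-3.84), Hsph1 (-0.78) and Dnajb1 (-1.89) in F1 pools.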
